A study of Mus musculus with 18 samples.

Results

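The liver X receptors (LXRs) and the genes through which macrophages export and remodel cholesterol were followed in bone marrow-derived macrophages (BMDMs) given no cells, non-apoptotic cells (NACs) or apoptotic cells (ACs). The 10 genes were taken by symbol: the receptors Nr1h3 (LXRα) and Nr1h2 (LXRβ), and the targets Abca1, Abcg1, Apoe, Pltp, Lpcat3, Srebf1, Scd2 and Mylip. All 10 were found by Ensembl identifier among the 49315 counted genes, and all 10 passed the filter on low counts in every comparison. Abcg1 was the only member with a group whose values lay beyond all 15 other libraries. The share of all genes with such a group was not counted. It was 3.15-fold higher with ACs in libraries labelled HDAC3 KO than in libraries labelled WT, and its 3 highest values of the series were the 3 ACs libraries labelled HDAC3 KO. In the same comparison Nr1h3 fell by 1.71 on the log2 scale. Abca1, the transporter usually named beside Abcg1, measured -0.00 there (95% interval -0.86 to 0.85). The Abcg1 call between the labels held in 3 of 6 fits with a library left out. Against untreated libraries of the HDAC3 KO label, Abcg1 with ACs did not pass (1.02, edgeR quasi-likelihood test, adjusted p = 0.334).

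LXRs are nuclear receptors that sit on DNA with a retinoid X receptor (RXR) partner and are switched on by oxysterols, the oxidised forms of cholesterol. Without ligand they hold a corepressor complex built on proteins such as NCoR1, of which the histone deacetylase HDAC3 is the enzyme. A macrophage that has engulfed a dying cell takes on that cell's cholesterol, and LXR activation is the textbook route by which it then raises the transporters and carriers that pass the cholesterol on.

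The study asked how myeloid HDAC3 shapes the response to ACs. The labels name the genotypes WT and HDAC3 KO. The methods describe HDAC3f/f mice and M-HDAC3-/- mice, which carry loxP sites on both sides of an exon of Hdac3 and, in the M-HDAC3-/- mice, a Cre recombinase at the lysozyme locus Lyz2 that acts in myeloid cells, all on C57BL/6J. Femur marrow was differentiated in medium conditioned by L929 fibroblasts, with 3 animals per group; their age was not given in the sources used here, nor whether the same animals served every treatment. K562, a suspension line from a human leukemia, served as the fed cell: after 15 min of UV-B as ACs, and without UV-B as NACs. Macrophages met either cell for 45 min, were washed, and were kept for 5 h before total RNA was taken. The 6 groups of label and treatment hold 3 libraries each, 18 in all.

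Libraries held 4704491 to 26421267 counts on genes. The smallest, replicate 1 of the untreated HDAC3 KO label, stood apart: 10.8% of its counts lay on long noncoding genes, against 1.23% to 4.70% elsewhere, and its group had the lowest correlation between replicates (Pearson r = 0.868). Hdac3 itself did not separate the labels, at 3.38 to 48.7 CPM (counts scaled to library size, with TMM factors) in libraries labelled WT and 4.66 to 74.6 CPM in those labelled HDAC3 KO. These counts cover the whole gene, not the deleted exon. The genotypes are therefore given below as labels. Macrophage markers were detected in every library (8 of 8 genes, none at 0, summed level 5804 to 19760 CPM), while those of T cells (6 genes, 0.775 to 4.78 CPM summed) and dendritic cells (6 genes, 0.265 to 2.59 CPM summed) were near 0. Granulocyte markers were not: all 8 genes were detected in every library, at 254 to 1294 CPM summed, and overlapped between the groups in every comparison. Fibroblast markers (6 genes) ranged from 4.31 to 222 CPM summed. RNA was taken from whole cultures, so a smaller share of cells expressing a gene and less of its RNA per cell cannot be told apart. Any reads of the human K562 cells that were counted on mouse genes were not measured here. The study describes mouse-only alignment as keeping that signal small. It also states that unequal engulfment between the genotypes may have skewed the sequencing results.

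Promoter sequence was available from RefSeq (GRCm38.p6) for 8 of the 10 members, all but Abcg1 and Scd2. The 250 bases before each start site were searched on both strands for the spaced repeat that LXR-RXR pairs recognise, written here as GGTNA, 5 bases of any kind, and GGTNA. It was found in 2 of 13 windows, against 204 of all 32851 windows (0.62%). These 2 windows are shown because they are the members' only matches. Both are printed on the strand of the gene and end at the base before the start site, with the matched 15 bases in capitals; the repeat reads on the opposite strand. The Abca1 window lies at chr4:53159896-53160145, with the match 67 to 53 bases before the start:
Abca1: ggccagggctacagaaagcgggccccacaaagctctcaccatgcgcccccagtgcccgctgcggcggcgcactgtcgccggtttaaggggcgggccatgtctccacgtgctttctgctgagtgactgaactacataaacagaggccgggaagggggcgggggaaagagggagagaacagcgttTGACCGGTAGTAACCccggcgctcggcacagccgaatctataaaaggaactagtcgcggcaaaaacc
The Srebf1 window belongs to the third of its 3 start sites in the table, inside the gene at chr11:60210472-60210721, with the match 182 to 168 bases before the start:
Srebf1: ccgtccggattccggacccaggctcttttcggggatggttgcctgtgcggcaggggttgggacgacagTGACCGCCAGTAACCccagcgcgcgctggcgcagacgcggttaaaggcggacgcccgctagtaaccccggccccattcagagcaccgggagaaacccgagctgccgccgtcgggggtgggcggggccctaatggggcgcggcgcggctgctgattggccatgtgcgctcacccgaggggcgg
A match of letters is a description and was not tested as a binding site. The same search found no match in the windows of Nr1h2, Nr1h3, Apoe, Pltp, Lpcat3 and Mylip.

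Per kilobase of exon, the members spanned medians from 2.91 to 8497 CPM per kb. Apoe, the apolipoprotein that carries exported cholesterol, was highest and took 0.686% to 7.32% of all counts in a library. Pltp, the phospholipid transfer protein, followed at 822 CPM per kb. Nr1h3 (120 CPM per kb) lay above Nr1h2 (69.0) in 17 of 18 libraries. The middle of the order was not resolved: Abcg1 (19.0 CPM per kb) exceeded Mylip (16.6) in 10 of 18 libraries, Lpcat3 (11.8) exceeded Abca1 (9.91) in 11, and Abca1 exceeded Srebf1 (9.37) in 10. Scd2 was lowest at 2.91 CPM per kb, below Srebf1 in 17 of 18.

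The receptors had profiles of their own. Nr1h3 (chr2:91184061-91202834, minus strand) is the receptor enriched in macrophages, liver and fat. In libraries labelled WT it measured 117, 191 and 435 CPM untreated, then 363, 356 and 314.5 with NACs, and 246, 484 and 468 with ACs (replicates 1 to 3). In libraries labelled HDAC3 KO it measured 366, 291 and 385 CPM untreated, then 154.5, 370 and 253.5 with NACs, and 96.6, 82.6 and 206 with ACs. All 3 ACs libraries labelled HDAC3 KO therefore lay below all 3 labelled WT. Nr1h2 (chr7:44549616-44553951, minus strand), the receptor found in most tissues, measured 88.7, 86.1 and 225 CPM in untreated libraries labelled WT, then 370, 202 and 336 with NACs and 160, 369 and 287 with ACs. Under the HDAC3 KO label it measured 249, 330 and 306 CPM untreated, then 146, 253 and 189 with NACs and 140, 94.9 and 238 with ACs. Nr1h2 overlapped between the labels in both cocultures and was separated only in untreated libraries, where it was higher under the HDAC3 KO label.

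The efflux transporters had different profiles. Abcg1 (chr17:31057698-31115777, plus strand) encodes the transporter that moves cholesterol to high-density lipoprotein. Under the WT label it lay at 53.8, 82.9 and 67.0 CPM untreated, then 85.1, 65.5 and 63.3 with NACs and 64.3, 60.3 and 72.5 with ACs. Under the HDAC3 KO label it measured 69.4, 105.7 and 176 CPM untreated, then 88.7, 75.2 and 79.2 with NACs and 238, 190 and 216 with ACs. Each of these last 3 values was above every one of the other 15 libraries, whose highest was 176 CPM, and this order was the same with library totals in place of TMM scaling. Abca1 (chr4:53030787-53159895, minus strand) encodes the transporter that loads cholesterol onto lipid-poor apolipoprotein. Under the WT label it measured 175, 154 and 110 CPM untreated, then 31.0, 66.5 and 63.9 with NACs and 149, 66.9 and 130.5 with ACs. Under the HDAC3 KO label the order of untreated and NACs was turned round, at 47.8, 84.6 and 53.7 CPM untreated and 217, 95.4 and 140 with NACs, and with ACs it measured 136, 128 and 90.9. NACs and untreated libraries did not overlap under either label.

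**Figure D1:**
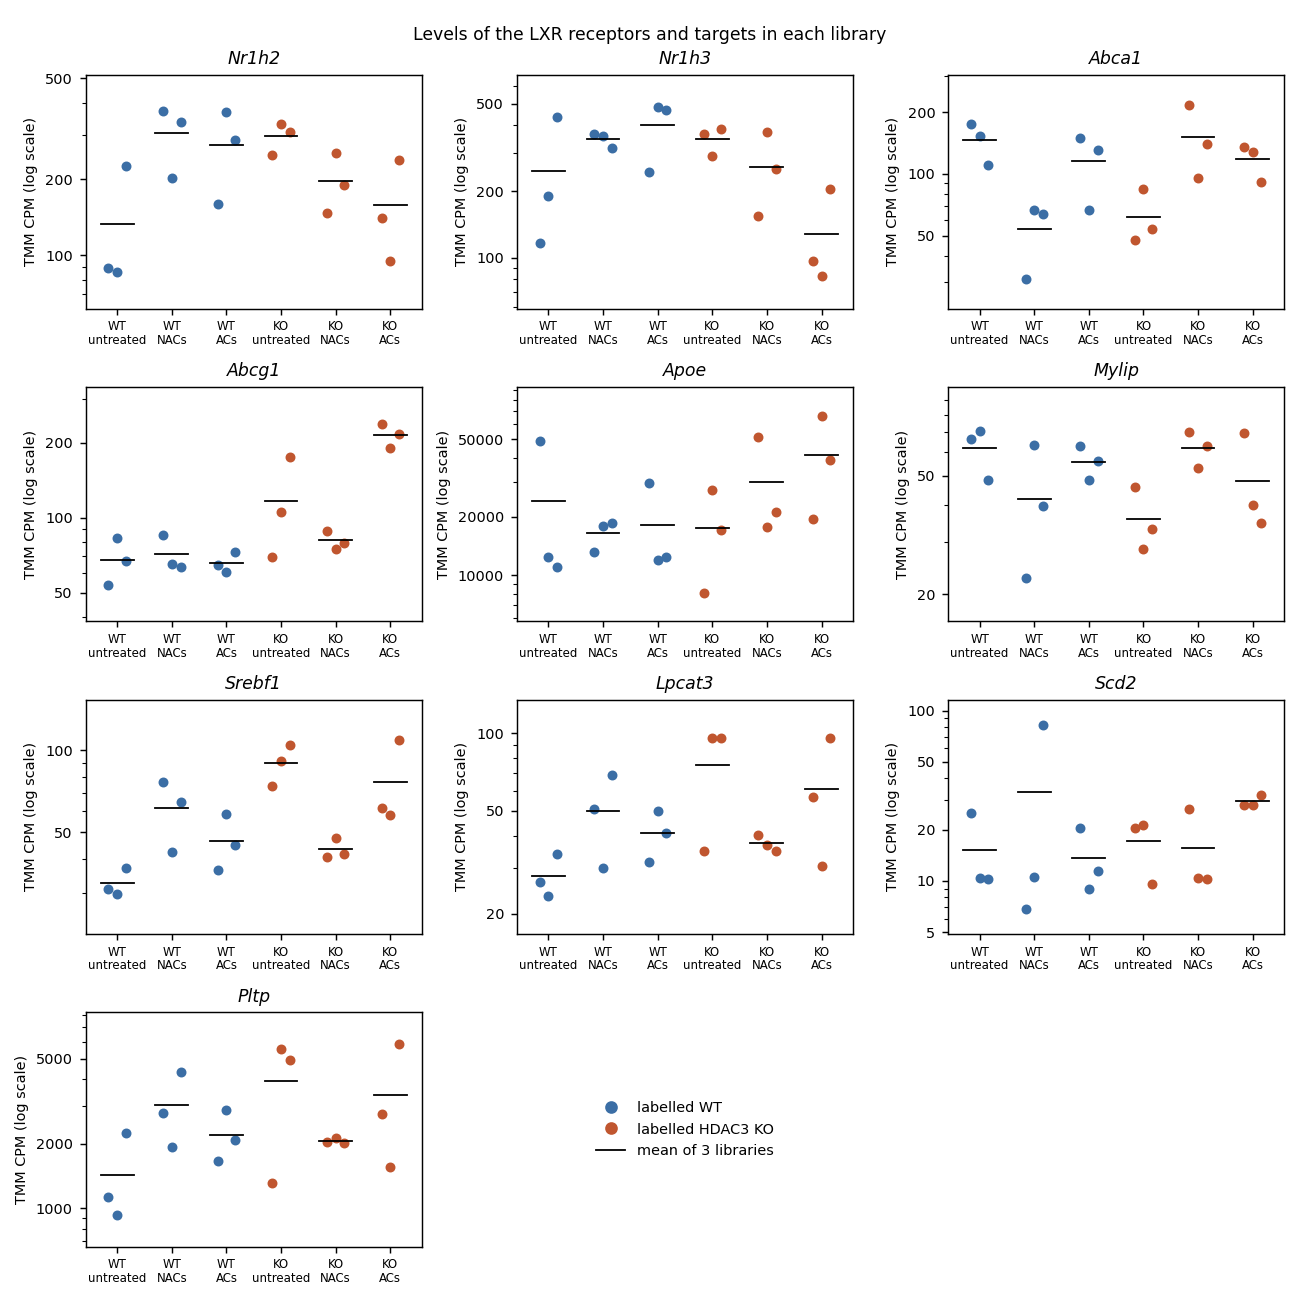
TMM CPM (log axis) of each gene in each of the 18 libraries, by label and treatment; each point is 1 library and the line is the mean of 3. Abcg1 with ACs under the HDAC3 KO label (190 to 238 CPM) sits above all other libraries, and Abca1 is low in WT-labelled NACs (31.0 to 66.5 CPM) and HDAC3 KO-labelled untreated libraries (47.8 to 84.6 CPM).

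Apoe and Pltp, which act on lipoprotein particles outside the cell, varied widely in most groups, from a 1.06-fold range for Pltp (2014 to 2134 CPM with NACs under the HDAC3 KO label) to 4.48-fold for Apoe (untreated, WT label). Apoe (chr7:19696109-19699188, minus strand) ranged from 8105 CPM in replicate 1 of the untreated HDAC3 KO label to 66180 CPM in an ACs library of the same label. Its group means with ACs were 18070 ± 10170 CPM under the WT label and 41580 ± 23450 CPM under the HDAC3 KO label (SD, n = 3 each), and the groups overlapped. Pltp (chr2:164839518-164857711, minus strand) ranged from 928 to 5859 CPM. Its group means lay between 1432 ± 710 CPM (WT label, untreated) and 3920 ± 2277 CPM (HDAC3 KO label, untreated). The exons of Pltp share 495 bases with Ctsa on the other strand, and the strand setting of the counting is not given in the sources used here, so part of its count is uncertain.

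Srebf1 and Lpcat3 had their lowest group means in untreated WT-labelled libraries, which Scd2 did not. Srebf1 (chr11:60199089-60222581, minus strand) encodes SREBP-1, the factor that switches on fatty acid synthesis. It measured 30.9, 29.6 and 36.9 CPM in untreated libraries labelled WT and 74.1, 91.2 and 104 CPM in those labelled HDAC3 KO, with no overlap. With NACs it measured 76.7, 42.4 and 64.6 CPM under the WT label and 40.6, 47.8 and 41.8 under the HDAC3 KO label, and with ACs 36.4, 58.3 and 45.1 against 61.6, 57.8 and 110. Lpcat3 (chr6:124663027-124704418, plus strand), which places polyunsaturated chains into membrane phospholipids, ranged from 23.4 to 96.2 CPM, with group means from 28.0 ± 5.42 CPM (WT label, untreated) to 75.6 ± 35.2 CPM (HDAC3 KO label, untreated; SD, n = 3 each). Lpcat3 exons share 334 bases with Emg1 and Srebf1 exons 175 bases with Rai1 and Mir6922 together, with the same uncertainty of strand. Nr1h3 shares 34 exonic bases with Gm13783 and Scd2 61 with Mir5114, each on its own strand. Scd2 (chr19:44293676-44306864, plus strand), a desaturase that makes monounsaturated fatty acids, measured 28.1, 27.9 and 31.9 CPM with ACs under the HDAC3 KO label against 20.3, 8.95 and 11.4 under the WT label. Its highest value, 82.7 CPM in replicate 3 of NACs under the WT label, stood far from the 6.83 and 10.5 CPM of that group's other libraries. Mylip (chr13:45389742-45412019, plus strand), the ubiquitin ligase IDOL that sends the LDL receptor for degradation, ranged from 22.7 to 70.8 CPM. Its untreated libraries measured 48.5 to 70.8 CPM under the WT label and 28.3 to 46.0 CPM under the HDAC3 KO label, without overlap.

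With ACs, 2 of 10 members passed the test between the labels, with a background of 3.75% of all genes called (edgeR quasi-likelihood test, adjusted p under 0.05). Abcg1 rose by 1.65 on the log2 scale under the HDAC3 KO label (SE 0.385, adjusted p = 0.0303), from 65.7 ± 6.22 to 215 ± 24.2 CPM (SD, n = 3 each). Nr1h3 fell by 1.71 (SE 0.449, adjusted p = 0.0445), from 399 ± 133 to 128 ± 67.7 CPM. The receptor and the transporter thus moved in opposite directions. Neither call was lost under any alternative that kept all 6 libraries, where the adjusted p ranged from 0.000262 to 0.0401 for Abcg1 and from 0.00825 to 0.0444 for Nr1h3. Both calls were lost without replicate 2 of the WT label (adjusted p = 0.0542 for Abcg1 and 0.0602 for Nr1h3), without its replicate 3 (0.0959 and 0.127), and without replicate 1 of the HDAC3 KO label (0.314 and 0.323), where 0 genes passed, and Nr1h3 also without replicate 2 of the HDAC3 KO label (0.056). Fold changes without each library stayed at 1.62 to 1.77 for Abcg1 and at -2.17 to -1.41 for Nr1h3.

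The other 8 members did not pass with ACs. Apoe measured 1.17 (SE 0.511, adjusted p = 0.167) and Scd2 1.06 (SE 0.43, adjusted p = 0.137), both toward the HDAC3 KO label, and Nr1h2 measured -0.86 (adjusted p = 0.237). Srebf1, at 0.64 (adjusted p = 0.335), passed in 1 alternative, an offset that removes trends with GC content and gene length (the GC-length offset), at 1.04 (adjusted p = 0.0342). Abca1 measured -0.00 with a 95% interval from -0.86 to 0.85 and an adjusted p of 0.997. Pltp measured 0.54, Lpcat3 0.50 and Mylip -0.27, with adjusted p from 0.496 to 0.712. The labels did not overlap for 3 members (Abcg1 and Scd2 higher, Nr1h3 lower under the HDAC3 KO label), where 28.3% of all genes did not overlap. The median over the members was 0.52, against -0.01 over all genes. Summed macrophage markers also did not overlap here, at 14700 to 16730 CPM under the HDAC3 KO label against 9102 to 11050 under the WT label, with 8 of 8 markers detected in all. Nor did depth, at 18495507 to 22664522 against 9385094 to 14929827 counts, or the share of counts on mitochondrial genes, at 0.493% to 1.189% against 0.341% to 0.48%. The macrophage sum includes Lyz2, the locus that carries the Cre recombinase in the M-HDAC3-/- mice. In replicate 2, Lyz2 alone gave 10460 of 15490 CPM under the HDAC3 KO label and 3025 of 10470 CPM under the WT label. The separation of this sum therefore depends in part on Lyz2. The part of the markers, the depth and the mitochondrial share in these results was not tested.

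With NACs, Abca1 was the 1 member of 10 called, against 0.864% of all genes. It rose by 1.52 under the HDAC3 KO label (SE 0.373, adjusted p = 0.0466), from 53.8 ± 19.8 to 151 ± 61.6 CPM (SD, n = 3 each), and was the only member whose labels did not overlap (27% of all genes). Apoe measured 0.91, Mylip 0.60 and Abcg1 0.22, and Nr1h3 -0.39, Nr1h2 -0.60, Srebf1 -0.47, Lpcat3 -0.38, Pltp -0.52 and Scd2 -1.06, with adjusted p from 0.215 to 0.652. The median over the members was -0.39, against -0.00 over all genes. The Scd2 interval, -4.20 to 2.08, was the widest, and without replicate 3 of the WT label its value was 0.92. The Abca1 call was lost with library totals alone (1.77, adjusted p = 0.0642), with the 18 libraries fitted together (1.49, adjusted p = 0.24) and with the GC-length offset (1.12, adjusted p = 0.135). It was also lost without replicate 1 (adjusted p = 0.267) or 3 (0.167) of the WT label and without replicate 1 (0.193) or 2 (0.0554) of the HDAC3 KO label, while its value stayed between 1.15 and 1.80. The mitochondrial share of counts did not overlap either, at 0.409% to 0.577% under the HDAC3 KO label and 0.294% to 0.404% under the WT label, nor did the long noncoding share, at 1.242% to 2.221% against 2.777% to 4.153%, and their part was not tested.

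In untreated macrophages, Srebf1 was the 1 member of 10 called, against 11.6% of all genes. It rose by 1.38 under the HDAC3 KO label (SE 0.385, adjusted p = 0.0408), from 32.5 ± 3.89 to 89.9 ± 15.1 CPM (SD, n = 3 each). Pltp (1.41, adjusted p = 0.0989), Lpcat3 (1.36, 0.0644), Nr1h2 (1.09, 0.0997), Abca1 (-1.32, 0.059) and Mylip (-0.92, 0.12) had unadjusted p under 0.05 without passing, and Abcg1 measured 0.67, Nr1h3 0.41, Scd2 0.07 and Apoe -0.55. Over all genes, 4499 of 12101 had an unadjusted p under 0.05. The labels did not overlap for 5 members, Nr1h2, Srebf1 and Lpcat3 higher and Abca1 and Mylip lower under the HDAC3 KO label, where 40.9% of all genes did not overlap, so 5 of 10 members lies near the background. The median over the members was 0.54, against 0.06 over all genes. Without the library that stood apart, replicate 1 of the HDAC3 KO label, 7 members passed: Nr1h2, Abcg1, Srebf1, Lpcat3 and Pltp higher, Abca1 and Mylip lower, where 5887 of 12714 genes passed. Leaving out any of the other 5 libraries left 0 members and at most 246 of all genes called, with an adjusted p for Srebf1 of 0.171, 0.188 and 0.0901 without replicates 1, 2 and 3 of the WT label and of 0.108 and 0.0882 without replicates 2 and 3 of the HDAC3 KO label. The Srebf1 call was also lost with library totals alone (0.88, adjusted p = 0.126), with no filter on low counts (1.41, 0.0703) and with the GC-length offset (0.51, 0.448). Summed markers of B cells (6.21 to 15.1 against 2.52 to 5.16 CPM, 6 genes) and of erythroid cells (2.51 to 3.22 against 0.53 to 1.32 CPM, 5 of 6 genes matched) were higher under the HDAC3 KO label without overlap, and the mitochondrial share of counts was lower (0.272% to 0.434% against 0.496% to 0.621%). Their part was not tested.

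**Figure D2:**
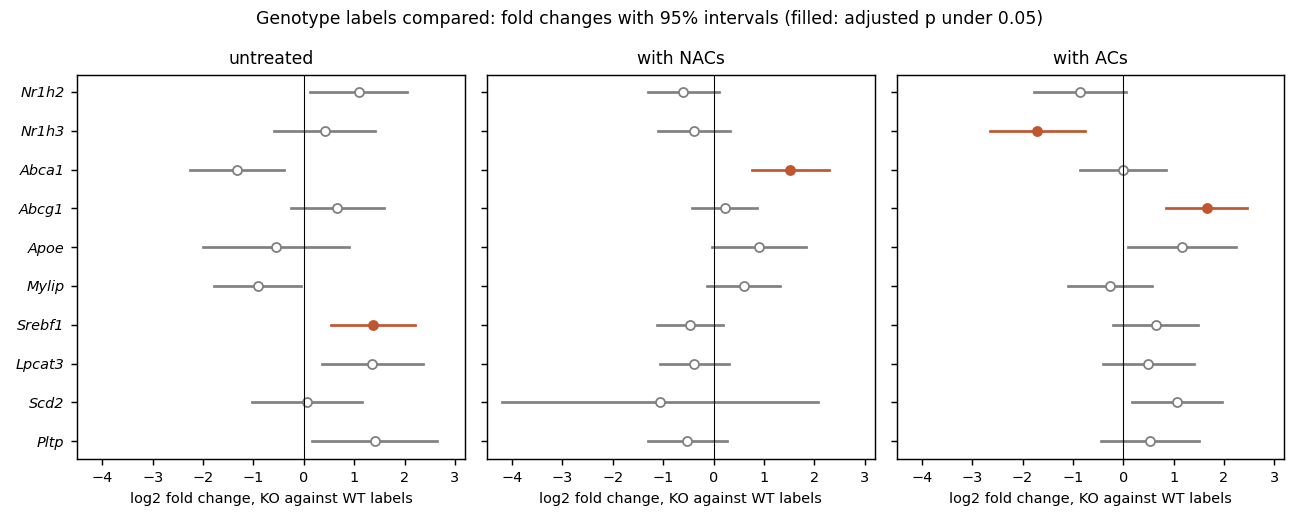
Log2 fold change of each gene between the genotype labels (x axis, HDAC3 KO against WT) with its 95% interval, in untreated, NACs and ACs libraries, n = 3 against 3; filled points passed at an adjusted p under 0.05. Filled points are Srebf1 (1.38) untreated, Abca1 (1.52) with NACs, and Nr1h3 (-1.71) and Abcg1 (1.65) with ACs.

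Ratios of members within a library do not depend on its scaling, but can carry its lean toward GC-rich genes, described below. Levels of Abca1 (r = -0.718) and Abcg1 (0.352) followed that lean unequally, as did those of Nr1h2 (0.777) and Nr1h3 (0.382). Its part in the ratios was not tested. Chosen after the levels had been seen, the ratio of Nr1h3 to Nr1h2 per length was 0.92, 1.16 and 1.16 with ACs under the HDAC3 KO label, the 3 lowest of the 18 libraries (the next measured 1.17), and 2.05, 1.75 and 2.18 under the WT label. These groups did not overlap, and the two-sided exact permutation test gave p = 0.1, the smallest that 3 against 3 allows. The ratio was 1.60 ± 0.398 against 2.43 ± 0.619 untreated (HDAC3 KO against WT label, SD, n = 3 each; exact p = 0.2) and 1.72 ± 0.281 against 1.63 ± 0.619 with NACs (exact p = 0.8), overlapping in both. The ratio of Abcg1 to Abca1 was 4.47, 3.78 and 6.05 with ACs under the HDAC3 KO label and 1.10, 2.30 and 1.42 under the WT label. Untreated, it was likewise higher under the HDAC3 KO label (3.70, 3.18 and 8.33 against 0.785, 1.38 and 1.55), and with NACs it was lower (1.04, 2.01 and 1.44 against 6.99, 2.51 and 2.53). None of these 3 comparisons overlapped, each with the smallest exact p of 0.1.

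**Figure D3:**
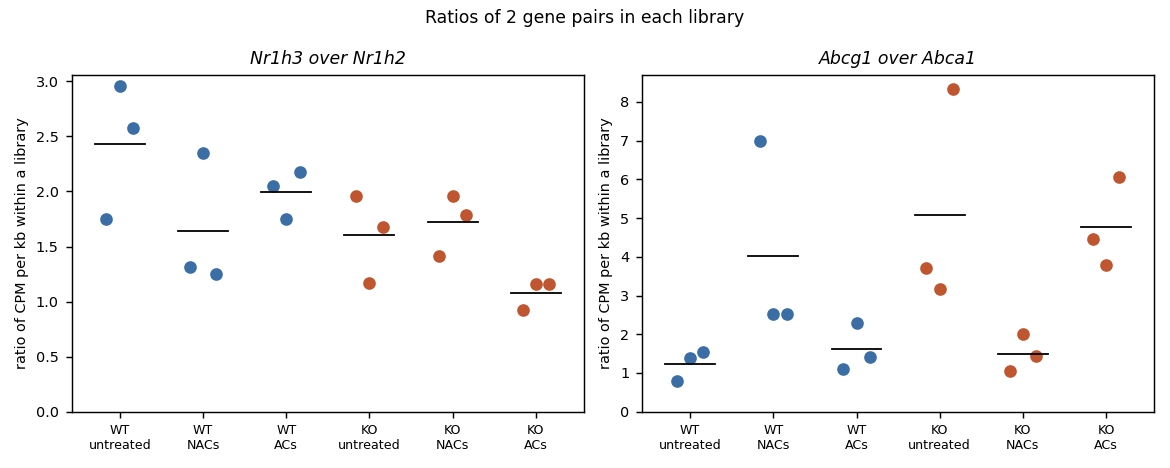
Ratio of CPM per kb within each library (y axis, linear) for Nr1h3 over Nr1h2 and Abcg1 over Abca1, by label and treatment; points are libraries and lines the mean of 3. The Nr1h3 to Nr1h2 ratio is lowest with ACs under the HDAC3 KO label (0.92 to 1.16), and the Abcg1 to Abca1 ratio changes side between NACs and the other treatments.

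Within the WT label, the response to added cells was read against libraries without them. With NACs against no cells, Abca1 fell by 1.51 (SE 0.393, adjusted p = 0.0218) and was the 1 member called, near the background of 8.52% of all genes. Its groups did not overlap, nor did those of Srebf1, at 0.85 (adjusted p = 0.0973), against 29.7% of all genes. Nr1h2 (1.15, adjusted p = 0.0557), Pltp (1.04, 0.102) and Lpcat3 (0.78, 0.128) did not pass. The Abca1 call was lost with library totals alone (-1.85, adjusted p = 0.0666), with the 18 libraries fitted together (-1.44, adjusted p = 0.145) and with the GC-length offset (-1.05, adjusted p = 0.126). It was also lost without replicate 1 (adjusted p = 0.148) or 2 (0.106) of the untreated libraries and without replicate 1 (0.193) or 3 (0.0606) of NACs, at values from -1.72 to -1.27. Without replicate 2 of NACs, 6 members passed: Nr1h2, Srebf1, Lpcat3 and Pltp higher and Abca1 and Mylip lower, where 4232 of 12383 genes passed. Summed B cell markers (6 genes) did not overlap here, at 5.26 to 19.4 CPM against 2.52 to 5.16 CPM, nor did the mitochondrial share of counts, at 0.294% to 0.404% against 0.496% to 0.621%, and their part was not tested.

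ACs against no cells called no member under the WT label by the quasi-likelihood test, with 0% of all genes called, and 0 members by the Wald test of DESeq2. At an unadjusted p under 0.05 there was 1 member (Nr1h2, 0.97, adjusted p = 0.393), with 1551 of 12199 genes. No member's groups were free of overlap, against 15.5% of all genes. ACs against NACs likewise gave 0 members, 0% of all genes, 0 by the Wald test and 1 at an unadjusted p under 0.05 (493 of 11844 genes). That 1 was Abca1 (1.13, adjusted p = 0.898), the only member whose groups did not overlap (10.4% of all genes). Abcg1 stayed at means of 67.9 ± 14.6, 71.3 ± 12.0 and 65.7 ± 6.22 CPM in untreated, NACs and ACs libraries of this label (SD, n = 3 each).

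Within the HDAC3 KO label, Abcg1 rose by 1.42 with ACs against NACs (SE 0.37, adjusted p = 0.02), from 81.0 ± 6.95 to 215 ± 24.2 CPM (SD, n = 3 each), and was the 1 member called, against 7.38% of all genes. The call held under every alternative that kept all 6 libraries (1.12 to 1.44, adjusted p from 0.000874 to 0.0382). It was lost without replicate 1 (adjusted p = 0.0716), 2 (0.127) or 3 (0.105) of NACs and without replicate 1 of ACs (0.14), with 1.32 the lowest value over the 6 left-out libraries. Without replicate 2 of ACs, 3 members passed, Abcg1, Srebf1 and Lpcat3, where 3013 of 12623 genes did. The groups of Abcg1, Srebf1 (0.82, adjusted p = 0.168) and Scd2 (0.91, adjusted p = 0.171) did not overlap, against 29.4% of all genes, and Nr1h3 measured -1.01 (adjusted p = 0.127), which passed with the GC-length offset. Summed fibroblast markers were 75.6 to 222 CPM with ACs and 7.22 to 42.7 CPM with NACs (6 genes, Lum at 0 in 13 of 18 libraries), and their part was not tested.

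Against untreated libraries of the same label, ACs called 0 members and 0% of all genes, and 0 members by the Wald test. At an unadjusted p under 0.05 there were 4 members, with 1761 of 12136 genes. These were Apoe (1.39), Abca1 (1.07), Abcg1 (1.02) and Nr1h3 (-1.33), with adjusted p from 0.311 to 0.334. The groups of 5 members did not overlap (Abca1, Abcg1 and Scd2 higher, Nr1h2 and Nr1h3 lower with ACs), against 21.5% of all genes. The mitochondrial share of counts did not overlap either, at 0.493% to 1.189% with ACs and 0.272% to 0.434% untreated, and its part was not tested. NACs against untreated also called 0 members, against 6.54% of all genes, with 3 at an unadjusted p under 0.05 (3690 of 12143 genes): Abca1 (1.48, adjusted p = 0.0582), Mylip (0.98, 0.107) and Srebf1 (-0.88, 0.0956). The Wald test called 2 of them, Abca1 and Srebf1, where it called 2308 of 12143 genes. The groups of these 3 did not overlap, against 38.7% of all genes, and without replicate 1 of the untreated libraries Abca1, Mylip, Srebf1, Lpcat3 and Pltp passed, where 4441 of 12493 genes did. Summed markers of fibroblasts (7.22 to 42.7 against 67.5 to 102 CPM), B cells (1.82 to 5.27 against 6.21 to 15.1 CPM) and erythroid cells (0.93 to 1.79 against 2.51 to 3.22 CPM) were lower with NACs, and their part was not tested. Comparisons that use the same untreated or NACs libraries share those values.

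**Figure D4:**
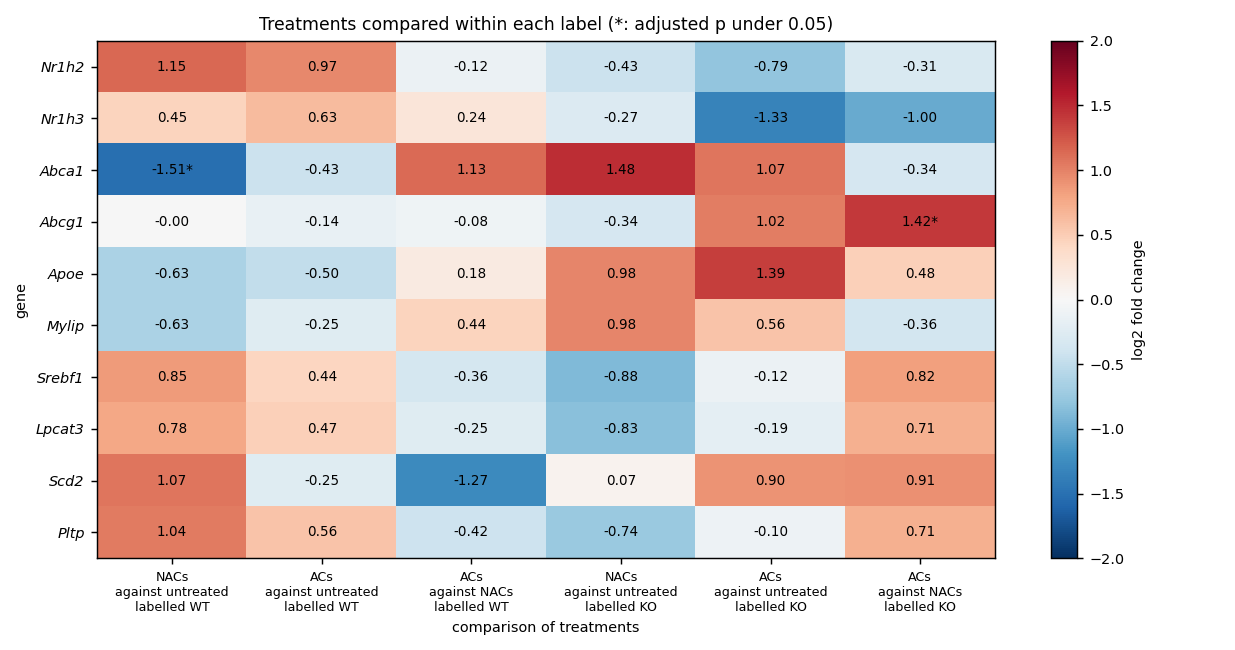
Log2 fold change of each gene (rows) between treatments within each label (columns), n = 3 against 3, coloured from -2 to 2; stars mark an adjusted p under 0.05. The stars are Abca1 with NACs against no cells under the WT label (-1.51) and Abcg1 with ACs against NACs under the HDAC3 KO label (1.42).

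Whether the labels differed in their response was tested as an interaction. For ACs against NACs, no member passed by the quasi-likelihood test, where 0.0765% of all genes did. Abcg1 came nearest, at 1.52 (SE 0.431, adjusted p = 0.0765), followed by Abca1 at -1.46 (adjusted p = 0.163), Srebf1 at 1.21 (0.183) and Nr1h3 at -1.23 (0.243). All 4 had an unadjusted p under 0.05, as did 2620 of 13076 genes. The Wald test of DESeq2 called 1 member, Abcg1 (adjusted p = 0.00797), with 762 of 13076 genes. For ACs against no cells, 0 members and 0% of all genes passed. Here 3 members had an unadjusted p under 0.05 (3188 of 13225 genes), and the Wald test called 2, with 1225 of 13225 genes. Nr1h3 (-2.13, adjusted p = 0.116) and Nr1h2 (-1.94, 0.121) were these 2, and Abca1 measured 1.26 (0.187). Abcg1 measured 0.91 there (adjusted p = 0.309). Both receptors passed without replicate 3 of the untreated WT label (Nr1h3 -2.81, adjusted p = 0.0452, with 471 of 13592 genes called) or replicate 3 of ACs under the HDAC3 KO label (-2.64, adjusted p = 0.0416, with 1100 of 13566 called).

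The response to NACs against no cells was tested in the same way after the opposite directions of Abca1 had been seen. Here 6 of 10 members passed, against 34.8% of all genes. Abca1 had the interaction of largest size among the members, 3.12 (SE 0.588, adjusted p = 0.0012), and it passed under all 8 alternatives (2.10 to 3.64) and without each of the 12 libraries (2.55 to 3.34). Mylip measured 1.75 (adjusted p = 0.0198), Srebf1 -1.62 (0.0126), Nr1h2 -1.48 (0.0353), Lpcat3 -1.49 (0.0423) and Pltp -1.67 (0.049). Only Abca1 and Srebf1 passed without replicate 2 of the untreated WT label, or without replicate 1 or 3 of NACs under the HDAC3 KO label, where 3043 of 13673, 3052 of 13171 and 3436 of 13146 genes did. With the GC-length offset only Abca1 passed (2.12, adjusted p = 0.0188), where 1258 of 13005 genes did, while Srebf1 measured -0.35 (adjusted p = 0.568) and Nr1h2 -0.31 (0.618). The libraries that separate this contrast also separate by GC content, as given next.

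Libraries differed in how counts leaned toward GC-rich genes. The GC trend of a library, the correlation across genes between GC content and deviation from the mean of all 18 libraries, was -0.56 to -0.37 in untreated libraries labelled WT and 0.11 to 0.55 in those labelled HDAC3 KO. With NACs it was -0.16 to 0.34 and -0.40 to -0.27, on the other side, and with ACs the labels overlapped (-0.33 to 0.40 and -0.27 to 0.44). Over the 18 libraries, levels of Srebf1 (r = 0.915), Lpcat3 (0.892), Pltp (0.839) and Nr1h2 (0.777) rose with this trend and those of Mylip (-0.762) and Abca1 (-0.718) fell with it, where the median size of r over all genes was 0.505. Nr1h3 (0.382), Abcg1 (0.352), Apoe (-0.218) and Scd2 (0.0824) followed it less closely. These correlations are descriptions over libraries that share groups and differ in depth. The 2 members called with ACs, Abcg1 and Nr1h3, kept values of 1.49 and -1.61 with the GC-length offset.

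**Figure D5:**
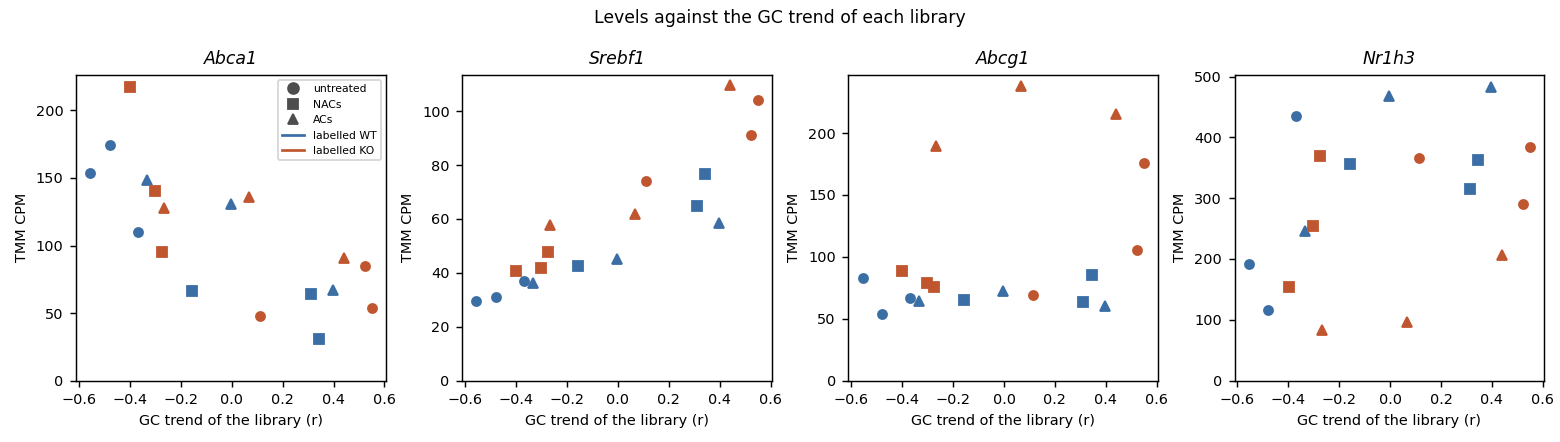
TMM CPM of Abca1, Srebf1, Abcg1 and Nr1h3 (y axis, from 0) against the GC trend of each library (x axis, correlation r), 18 libraries, colour for label and shape for treatment. Srebf1 climbs with the trend (r = 0.915) and Abca1 falls (r = -0.718), while the 3 ACs libraries of the HDAC3 KO label, at trends from -0.27 to 0.44, are the highest for Abcg1 and lie at 82.6 to 206 CPM for Nr1h3, where other libraries overlap them.

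The members fell into sets that varied together over the 18 libraries. Lpcat3 and Pltp were the closest pair (r = 0.96), joined by Srebf1 (0.873 with Lpcat3). Nr1h3 and Nr1h2 correlated at 0.812, and Abca1 with Mylip at 0.741. Mylip ran against Srebf1 (-0.797), Nr1h3 against Apoe (-0.743), and Nr1h2 against Abca1 (-0.736). Abca1 and Abcg1 showed almost no relation, at 0.0207 over all libraries and -0.001 after group means were removed. Among 13662 genes, those most like Abcg1 included Ctbp1 (0.977) and Vcp (0.958), and those most like Abca1 were Bach1 (0.959), Ifi207 (0.949) and Tnpo1 (0.941). Nr1h3 was most like Tbc1d10a (0.963), Gmppb (0.96) and Adck5 (0.959), Nr1h2 most like C1qtnf6 (0.984), Ino80e (0.982) and Rbck1 (0.982), and Apoe most like Fcna (0.885), Lyz1 (0.858) and Rhob (0.855). These are likenesses over the same 18 libraries, which also share the GC trend, and carry no test.

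The rest of the pathway was read from 3 lists. Of 13 receptor partners and coregulators, 12 were tested. With ACs, 1 fell under the HDAC3 KO label and 0 rose: Rxrb, an RXR partner of the LXRs, by 1.61 (adjusted p = 0.0456), with a list median of 0.31 against -0.01 over all genes. Rxrb measured 236, 333 and 335 CPM under the WT label and 89.4, 59.3 and 162 CPM under the HDAC3 KO label, so it fell in the same comparison as Nr1h3. The share of all genes called was 3.75%, and the Rxrb call was lost without replicate 1 of the HDAC3 KO label, where 0 genes passed. Ncoa3, a coactivator, measured 0.81 (adjusted p = 0.212) there. Untreated, Rxra rose by 1.49 (adjusted p = 0.0498) and Gps2, a subunit of the corepressor complex, by 1.83 (adjusted p = 0.0298), 2 of 12 where 11.6% of all genes were called. Both calls were lost with the GC-length offset and without replicate 2 or 3 of the WT label or replicate 3 of the HDAC3 KO label, where 0 genes passed. With NACs 0 of 12 passed, Ncoa6 (1.26, adjusted p = 0.0864) and Tbl1x (0.99, 0.157) measuring highest. NACs against no cells under the WT label lowered Tbl1x (-1.12, adjusted p = 0.0491) and Ncoa6 (-1.43, 0.0283) and raised Gps2 (1.13, 0.0443), 3 of 12 where 8.52% of all genes were called. All 3 calls were lost with library totals alone, with the 18 libraries fitted together and with the GC-length offset, where 0 genes passed.

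Of 20 other LXR targets, 16 to 18 were tested in a comparison. Between the labels with ACs 0 of 18 passed, with a list median of 0.55 against -0.01 over all genes. Cd5l, a secreted scavenger-receptor protein, measured 1.85 (adjusted p = 0.0775), and Apoc1, an apolipoprotein, -2.06 (0.451). Apoc1 lay at 0.654, 13.7 and 6.75 CPM under the HDAC3 KO label against 74.5, 7.35 and 4.86 under the WT label. Its value therefore rests on replicate 1 of the WT label, which stood far above the others of its group. With ACs against NACs under the HDAC3 KO label 3 of 18 rose and 0 fell, with a list median of 0.84 against 0.09 over all genes and 7.38% of all genes called. These were Cd5l (1.75, adjusted p = 0.0181), Acaca, which makes malonyl-CoA for fatty acid synthesis (1.70, 0.0179), and the desaturase Fads1 (1.22, 0.0484), in the comparison that called Abcg1. All 3 calls were lost without replicate 1 of ACs, where 0 genes passed. Cd5l measured 395, 290 and 478 CPM with ACs and 39.0, 144 and 167 CPM with NACs. Smpdl3a, a phosphodiesterase, was lower under the HDAC3 KO label untreated (-2.03, adjusted p = 0.0218), fell with NACs under the WT label (-1.27, 0.0388) and rose with NACs under the HDAC3 KO label (1.91, 0.0353), the directions of Abca1. It was the 1 target called in each of these comparisons, where 11.6%, 8.52% and 6.54% of all genes were. All 3 calls were lost with the GC-length offset, where 0 genes passed. The call untreated was also lost without replicate 2 or 3 of the WT label or 3 of the HDAC3 KO label, that under the WT label with library totals alone or the 18 libraries fitted together, and that under the HDAC3 KO label with the size factors of DESeq2 or without any single library other than replicate 1 of the untreated ones, each of which left 0 genes called. With NACs 0 of 18 passed between the labels, Elovl6 measuring -2.34 (adjusted p = 0.0765) and Apoc1 1.67 (0.415), and Apoc1 measured -1.87 (0.155) untreated. Each of these Apoc1 values rests on 1 library, replicate 1 of the HDAC3 KO label with NACs and of the WT label untreated. With NACs Apoc1 lay at 51.2, 13 and 2.3 CPM under the HDAC3 KO label against 9.18, 4.27 and 8.33 under the WT label. Untreated, it lay at 13.8, 9.95 and 5.62 CPM against 87.1, 3.41 and 6.64.

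Of 12 genes for oxysterol and cholesterol handling, 11 were tested and none passed in any of the comparisons of labels or treatments. Between the labels with ACs 9 of 11 were fitted higher, with a median of 0.74 against -0.01 over all genes. The share of all genes fitted higher is not given here. The 2 of largest size were Ch25h, which makes 25-hydroxycholesterol, at 1.34 (adjusted p = 0.411), and Npc1, which releases cholesterol from lysosomes, at 1.33 (0.0942). Ch25h lay at 3.5, 1.51 and 0.203 CPM under the HDAC3 KO label against 0, 0.959 and 0.973 under the WT label. Its value therefore rests largely on replicate 1 of the HDAC3 KO label. Untreated, Cyp27a1 measured 1.24 (adjusted p = 0.0687) and Scarb1 1.09 (0.155), and with NACs Nceh1 measured 0.77 (0.166) and Cyp27a1 -0.72 (0.221). In the interaction with NACs or no cells, where 34.8% of all genes passed, 2 of 11 did: Nceh1 (1.79, adjusted p = 0.00975) and Cyp27a1 (-1.75, 0.0271). In the same interaction 7 of 12 partners passed, Ncoa6 (2.56), Tbl1x (2.54), Tbl1xr1 (2.40), Ncoa3 (1.77) and Ep300 (1.63) upward and Gps2 (-2.53) and Rxra (-1.71) downward. Of 18 other targets 6 passed, Smpdl3a (3.31) and Elovl5 (2.43) upward and Elovl6 (-3.17), Fads2 (-2.30), Tgm2 (-1.98) and Fasn (-1.58) downward. With the GC-length offset 1258 of 13005 genes passed this interaction, against 4530 without it. The list genes are not given with that offset here.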

How the data were processed

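Libraries were made with the NEBNext Ultra II kit. Per the labels, reads were trimmed with Trimmomatic 0.36, aligned with STAR 2.5.2b to GRCm38 and counted on genes with featureCounts (Subread 1.5.2); the strand setting and annotation release are not given in the sources used here. The deposited values are whole counts for 49315 genes in each of 18 libraries, without normalization. Of these, 44772 have the same start and end as in GENCODE M21, the source of symbols. For every comparison a model was fitted to the libraries compared, using edgeR 4.0.16 under R 4.3.3 (filterByExpr with minimum count 10 and minimum total count 15, TMM, glmQLFit with robust dispersions, glmQLFTest), and p-values were adjusted over all genes tested by the Benjamini-Hochberg method at 0.05. The study's own test, the Wald test of DESeq2 (1.42.0 here), was an alternative, as were other scalings, no filter, all libraries fitted together, blocking on replicate number, a smooth offset on gene GC content and length (mgcv 1.9.3) and each library left out. Levels are CPM of 18 libraries scaled together. The ratios and the interaction of label with NACs or no cells were added after results had been seen. Exact permutation tests used log2 of CPM plus 1 or of the ratio, two-sided. Correlations used log2 CPM with a prior count of 2. Members were named in each comparison between the labels and, elsewhere, where the unadjusted p was under 0.05 or the groups did not overlap; list genes were named where called, and the 2 of largest fold change in each list between the labels. Members and lists were chosen with earlier results of these data known. A few items named by these rules are not reported here.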

Additional observations from a re-analysis of the deposited data

Results flagged for a closer look

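The response to NACs against no cells differed between the genotype labels for 6 members, by the interaction added after their opposite directions had been seen (quasi-likelihood test over 12 libraries, 34.8% of all genes called). The differences in log2 fold change, HDAC3 KO minus WT label, were 3.12 for Abca1 (adjusted p = 0.0012), 1.75 for Mylip (0.0198), -1.48 for Nr1h2 (0.0353), -1.61 for Srebf1 (0.0126), -1.49 for Lpcat3 (0.0423) and -1.67 for Pltp (0.049). The GC trend of the libraries separates the same 4 groups in the same way, and with the GC-length offset 1 of the 6, Abca1, still passed (2.12, adjusted p = 0.0188), where 1258 of 13005 genes did, so 1 of 10 members is near the background there. The part of the GC trend was otherwise not tested. No formal test of single outlying libraries was made.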

How the results depend on the processing

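The number of members called between the labels with ACs was 2 to 3 under the alternatives that kept all libraries (357 to 1373 genes). It was 0 to 2 with a library left out (0 to 1693 genes). Untreated, the main count of 1 became 2 with the size factors of DESeq2 (1637 of 12101 genes), 2 with library totals alone (Abca1 and Mylip, 2406 of 12101), 5 with the Wald test (3314 of 12101 genes), 4 with all 18 libraries in 1 fit (3306 of 13662 genes), and 0 with no filter, the replicate block, the GC-length offset, or the block and offset together, and it ranged from 0 to 7 with a library left out. With NACs the count of 1 became 0 with library totals alone, all 18 libraries, the offset, and the block with the offset (16, 0, 1 and 5 genes; 0 to 2 with a library left out). NACs against no cells under the WT label gave 0 in these same 4 settings (0, 0, 0 and 59 genes), 4 with the Wald test (1679 of 11912 genes) and 2 with the replicate block (1784) (0 to 6 with a library left out). Under the HDAC3 KO label it gave 2 with library totals alone (2115 of 12143 genes), 2 with the Wald test (2308) and 1 with no filter (1479 of 23470), and 0 to 5 with a library left out. ACs against NACs under the HDAC3 KO label gave 2 with the offset (556 of 12244 genes) and with the block and offset (1159), and 0 to 3 with a library left out. The interaction for ACs or NACs gave 1 with the Wald test (762 of 13076 genes), 1 with no filter (Scd2, 537 of 27916) and 1 with the offset (257 of 13076), and 0 to 1 with a library left out. That for ACs or no cells gave 2 with the Wald test (1225 of 13225 genes) and 0 to 2 with a library left out. That for NACs or no cells gave 3 with library totals alone (4002 of 13005 genes), 1 with the offset (1258) and 1 with the block and offset (815), and 2 to 6 with a library left out. The cause of these changes was not tested.

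Signs turned for 6 member values between the labels, none of them called. Untreated, Nr1h3 became -0.0443 and Scd2 -0.396 with library totals alone, and Nr1h3 became -0.283 with the offset and -0.217 with the block and offset. With NACs the offset gave 0.055 for Nr1h2, 0.181 for Srebf1 and 0.0377 for Pltp, and the block with the offset 0.0638, 0.183 and 0.0698. With ACs, Abca1 became 0.015 with the size factors of DESeq2, 0.0151 with the Wald test, 0.134 with no filter, 0.0351 with all 18 libraries and 0.0365 with the replicate block. With a library left out, values ranged from -1.09 to 0.438 for Apoe and -0.185 to 0.587 for Scd2 untreated, -1.68 to 0.916 for Scd2 with NACs, and -0.255 to 0.249 for Abca1 and -0.0665 to 0.949 for Pltp with ACs. Library totals moved the median fold change of all genes to between -0.467 and 0.701, against -0.107 to 0.124 as reported. It moved the calls higher under the HDAC3 KO label untreated from 368 of 1404 genes to 54 of 2406, with NACs from 64 of 103 to 12 of 16, and for ACs against NACs under the HDAC3 KO label from 325 of 904 to 77 of 578. With these totals 49 of 60 group mean levels stayed within 1 SD. Over the alternatives with all libraries, calls over all genes between the labels ranged from 0 to 3314 untreated (1404 as reported), 0 to 575 with NACs (103) and 357 to 1373 with ACs (461). For NACs against no cells they ranged from 0 to 1784 under the WT label (1015) and 0 to 2308 under the HDAC3 KO label (794), and for ACs against NACs under the HDAC3 KO label from 252 to 1430 (904). With a library left out they ranged from 0 to 5887, 0 to 3121 and 0 to 1693 between the labels and from 21 to 4232, 0 to 4441 and 0 to 3013 in these 3 treatment comparisons.

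Replicate numbers did not pair the libraries by the rule used: in no comparison did all 3 same-numbered pairs correlate above 0.1 in their deviations from group means, and at most 4 of 6 libraries were closest to their own number. For ACs against no cells the correlations were 0.461, 0.126 and 0.0642 under the WT label and -0.29, -0.253 and 0.265 under the HDAC3 KO label. With 3 libraries per group, this check cannot tell whether treatments shared animals. Values with the replicate block alone are therefore given only in this section. Elsewhere the block enters the counts and ranges over the alternatives. A left-out library leaves 2 against 3, and with 3 against 3 the exact test cannot fall below 0.1.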
